A study of Homo sapiens with 121 samples.

Results

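Shelterin is the protein complex that covers the telomere ends of human chromosomes. Its 6 subunits are encoded by TERF1, TERF2, TINF2, ACD, POT1 and TERF2IP, and the rows of these 6 genes, chosen by symbol, were described out of 25610 genes read from the expression table. All 6 symbols were found. The subunits made by ACD and TERF2IP are commonly called TPP1 and RAP1, and both names also belong to other genes. The symbol TPP1 is that of a lysosomal tripeptidyl peptidase, and RAP1A and RAP1B are small GTPases of the Ras family. The rows of these namesakes were therefore kept apart from the shelterin genes.

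The subunits have separate roles. The proteins of TERF1 (TRF1) and TERF2 (TRF2) bind double-stranded telomere repeats as homodimers. TRF1 is known to assist replication of the repeats and to restrain their elongation by telomerase, and TRF2 forms the protective t-loop and blocks the ATM damage response and end-to-end fusion. The protein of TINF2 (TIN2) holds TRF1 and TRF2 together and joins them to the ACD protein. The ACD protein brings in POT1, which covers the single-stranded overhang, and it also recruits telomerase. The TERF2IP protein reaches telomeres through TRF2. In pluripotent cells telomerase is active, and TERF1 is known to be abundant in these cells.

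The cells were 121 single human embryonic stem cells (hESCs) of line WA26, grown without feeder cells on Matrigel in E8 medium, with no treatment or genetic change named for any group. In scT&R-seq, beads pull the polyadenylated RNA out of a cell lysate for sequencing, and the remaining DNA serves for a qPCR of telomere repeats. The sample titles put 81 cells in a long, 25 in a medium and 15 in a short telomere group. All cells come from 1 line, and no culture, passage or batch is named for them, so each group counts as 1 sample, cells were not used as replicates, and no p-value was computed.

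Values are named TPM, a unit that by definition scales read numbers by transcript length and to a common total per cell. The study's methods describe a scaling by library size and no step for length, so levels set side by side between genes rest on the named unit. Read numbers cannot be recovered from TPM, and the depth behind a value is unknown. A gene was counted as detected in a cell above TPM 1, and levels were put on the scale of log2(TPM + 1), on which differences of genes with low TPM come out too small. Detected genes per cell ranged from 4002 to 11515 in long telomere cells (median 9165), from 4189 to 10481 in medium (median 8626) and from 2030 to 10045 in short telomere cells (median 5620). Results are therefore also given for 68 gene-rich cells, those with over 8000 detected genes (51 long, 14 medium and 3 short), and for the 53 remaining, gene-poor cells (30, 11 and 12). Of 8 hESC markers, POU5F1 was detected in every cell and GDF3 in the lowest percentage (82.6%). By group, the lowest percentage was 87.7% in long (GDF3), 92.0% in medium (SOX2) and 40.0% in short telomere cells (GDF3). The summed TPM of these markers ranged from 608 to 3096, from 814 to 2596 and from 522 to 2548 in the long, medium and short groups, with medians of 2205, 1919 and 1129. Medians of the summed TPM of 6 endoderm markers were 0.35, 0.06 and 2.21 in the 3 groups and those of 5 mesoderm markers 0.72, 0.36 and 7.64. For 4 neuroectoderm markers they were 82.8, 60.0 and 44.6, mostly from the tubulin gene TUBB3, and for 5 fibroblast markers 5.64, 4.13 and 0.12. GATA6, HAND1, NEUROG2 and LUM were listed at TPM 0 in every cell. The part of marker levels and of the number of detected genes in the differences between groups was not tested.

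On the hg19 (GRCh37) map, TERF1 lies on the plus strand at chr8:73921091-73960358 and TERF2 on the minus strand at chr16:69389470-69442474. TINF2 is at chr14:24707492-24711869, ACD at chr16:67691415-67694713 and POT1 at chr7:124462440-124570037, all on the minus strand, and TERF2IP is at chr16:75681671-75795770 on the plus strand. All 6 are annotated as protein-coding, with canonical transcripts of 3 exons (TERF2IP) to 19 exons (POT1) and 1511 bases (ACD) to 3924 bases (POT1). TERF1 has 7 annotated processed pseudogenes that carry its name. Of the 3280 stretches of 50 bases (the read length) in its canonical transcript, 633, or 19.3%, occurred without a mismatch in at least 1 of these pseudogenes. Reads from these stretches could have been placed elsewhere or dropped. No annotated pseudogene carries the name of the other 5 genes, and pseudogenes under other names were not searched for. Exons of TERF2 and TINF2 each overlap those of an annotated gene without a symbol, on the same strand for TERF2 (ENSG00000260371) and on the other strand for TINF2 (ENSG00000289979), and those of TERF2IP and ACD overlap the genes named with their values.

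TERF1 stood far above the rest of the complex. Its mean log2(TPM + 1) was 8.97 ± 1.03 (SD across cells, n = 121 cells), and TPM was 15.9 in the lowest cell, 557 in the median cell and 2276 in the highest cell. It was detected in all 121 cells, as were 394 genes of the table, and its mean TPM of 605 took place 295 of 25610 genes. Within a cell, TERF1 took a median place of 316 among all genes, between place 73 and place 2169.

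The other 5 genes were present at a low level and in part of the cells. TERF2IP had a median TPM of 9.25 and a mean log2 level of 2.82 ± 2.21, TINF2 a median of 5.84 and a mean of 2.40 ± 2.21, and ACD a median of 4.29 and a mean of 2.32 ± 2.01. TERF2 had a median TPM of 2.88 and a mean log2 level of 2.14 ± 1.63, and POT1 a median of 2.02 and a mean of 1.82 ± 1.81 (n = 121 cells each). All 5 were at TPM 0 in some cells, from 20 cells for TERF2 to 44 cells for TINF2 and for POT1. Their coefficient of variation across cells lay between 1.51 for POT1 and 3.47 for TERF2IP, against 0.590 for TERF1.

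The order was the same by mean log2 level, median TPM and mean TPM. TERF1 was higher than TERF2IP in 120 of 121 cells, with a mean difference of 6.14 ± 2.33 on the log2 scale. The neighbours below it differed by less than their spread. TERF2IP was above TINF2 by 0.42 ± 3.00 and was the higher gene in 70 cells against 37. TINF2 and ACD differed by 0.08 ± 2.96, ACD and TERF2 by 0.18 ± 2.67, and TERF2 and POT1 by 0.32 ± 2.24. ACD was higher than TERF2 in 55 cells and lower in 55 cells. Between the ends of this run of 5 genes, TERF2IP was above POT1 by 1.00 ± 2.49.

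**Figure D1:**
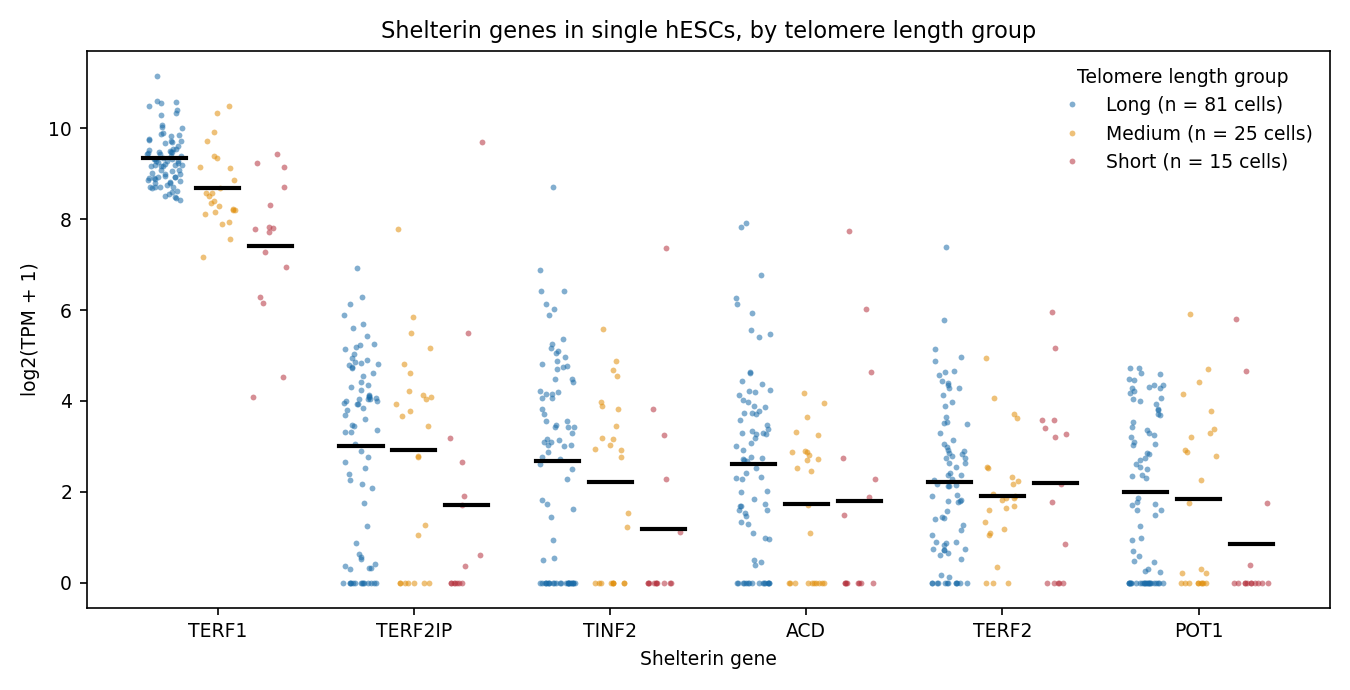
Level of each shelterin gene in single hESCs. The y axis is log2(TPM + 1), each point is 1 cell, colours are the telomere length groups (81 long, 25 medium and 15 short), and black lines are group means. TERF1 lies above the other 5 genes in nearly all cells and its group means run from 9.34 to 7.42, while the other 5 genes have many cells at 0 in every group.

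TERF1, which encodes the subunit TRF1, was highest in long, intermediate in medium and lowest in short telomere cells. In long telomere cells its TPM ranged from 340.5 to 2276 with a median of 619.5, in medium telomere cells from 144 to 1431 with a median of 365, and in short telomere cells from 15.9 to 689 with a median of 218. The groups overlapped, but 11 of 15 short and 12 of 25 medium telomere cells lay below the lowest long telomere cell, and 31 of 81 long telomere cells lay above the highest short one. Mean log2 levels were 9.34 ± 0.57, 8.69 ± 0.82 and 7.42 ± 1.60 (SD across n = 81, 25 and 15 cells).

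The difference in TERF1 between long and short telomere cells was 1.92 on the log2 scale, which exceeds the SD of both groups. When every long telomere cell was paired with every short one, TERF1 was higher in the former in 89.4% of pairs. The mean TPM was 2.69-fold higher in the long group (704 against 262). The long group was above the medium group by 0.65 (higher in 76.3% of pairs), and the medium group was above the short group by 1.27 (74.9% of pairs). Both steps were within the SD across cells of the group with the wider spread. TERF1 was place 278 in the median long telomere cell, place 435 in the median medium and place 643 in the median short telomere cell.

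The order of the groups in TERF1 was the same in gene-rich and gene-poor cells. Medians in gene-rich cells were TPM 577 (long), 317 (medium) and 224 (short), and the 3 short telomere cells stood at 122, 224 and 418. Medians in gene-poor cells were 794, 379 and 213. Long minus short was 1.31 among gene-rich cells (higher in 94.8% of pairs, n = 51 and 3) and 2.37 among gene-poor cells (92.8%, n = 30 and 12), beyond the SD of each group in both sets. Over all long telomere cells the level of TERF1 had a Pearson coefficient of −0.52 and a Spearman coefficient of −0.47 with the number of detected genes (n = 81 cells, which share line and protocol), and its mean was 9.14 in the gene-rich and 9.68 in the gene-poor ones.

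When each cell was instead scaled by its median ratio over 602 genes that were above TPM 0 in every cell, the median difference of all genes between long and short telomere cells shifted from 0.70 to 0.52. TERF1 then differed by 1.17 in place of 1.92 between long and short telomere cells and by 0.54 in place of 1.27 between medium and short ones. Between long and medium telomere cells it differed by 0.63 in place of 0.65. Both differences from the short group thus shifted more than the median of all genes did. The direction for TERF1 was the same under both scalings.

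**Figure D2:**
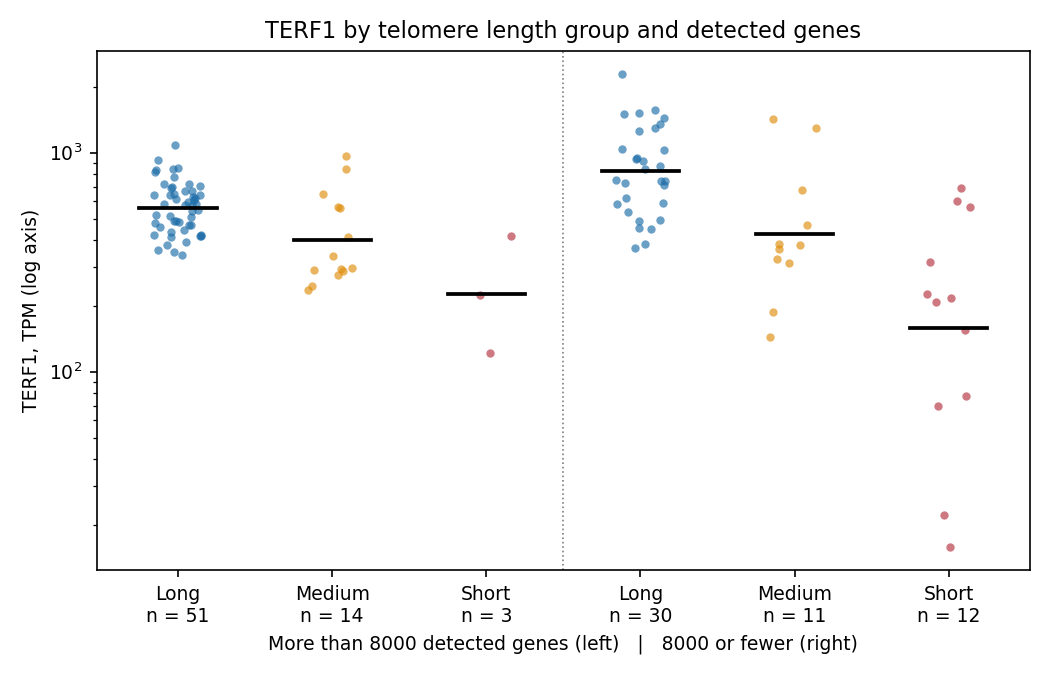
TERF1 level by telomere length group, with gene-rich cells (over 8000 detected genes) on the left and gene-poor cells on the right. The y axis is TPM on a log axis, each point is 1 cell, and black lines are means taken on the log2(TPM + 1) scale and turned back to TPM. On both sides the long group is highest and the short group lowest, with 3 short telomere cells on the left at TPM 122 to 418.

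TERF2, which encodes the other double-strand binding subunit, showed no such order. Its mean log2 level was 2.21 ± 1.67 (long), 1.90 ± 1.24 (medium) and 2.20 ± 2.01 (short), and median TPM was 3.43, 2.65 and 3.52. Long minus short was 0.02, and the long telomere cell was the higher one in 51.2% of pairs. The sign of this difference was not stable, being 0.76 among gene-rich cells, −0.67 among gene-poor cells and −0.60 with median ratio scaling.

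TERF2IP, whose product binds TRF2, was higher in long and medium than in short telomere cells on the log2 scale, with means of 3.00 ± 2.04, 2.91 ± 2.28 and 1.71 ± 2.74. Median TPM was 11.9, 11.7 and 0.29. The mean TPM ran the other way, at 16.2, 21.4 and 59.7, because a single short telomere cell held TPM 831, or 30.3% of all TERF2IP TPM over the 121 cells. This cell had 3481 detected genes and TERF1 at TPM 689, and the mean of the other 14 short telomere cells was 4.55 ± 11.7. Without it, long minus short was 1.86 in place of 1.29, and medium minus short was 1.78 in place of 1.21. In the annotation, exons of TERF2IP overlap those of KARS, a lysyl-tRNA synthetase gene on the other strand, which had a median TPM of 132 and was detected in 91.7% of cells. Smart-seq2, on which the cDNA protocol was based, does not mark strand, so reads in the overlap cannot be told apart, and the Pearson coefficient of both genes was 0.26 (Spearman 0.14, n = 121 cells).

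TINF2, which encodes the bridging subunit TIN2, had median TPM of 7.20 (long), 6.53 (medium) and 0 (short). Mean log2 levels were 2.68 ± 2.24, 2.22 ± 1.93 and 1.19 ± 2.15, so that long minus short was 1.49 and the long telomere cell was the higher one in 70.0% of pairs. In 10 of the 15 short telomere cells the gene was at TPM 0, while 1 of the others had TPM 164. Long minus short was 1.39 among gene-rich and 0.44 among gene-poor cells.

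ACD, which encodes the subunit that joins POT1 and telomerase to the complex, had median TPM of 5.45 (long), 4.49 (medium) and 0 (short). Its mean log2 level was 2.61 ± 2.00 in the long group, 1.72 ± 1.56 in the medium group and 1.79 ± 2.51 in the short group. Long minus medium was 0.89, and 233 of the 13439 genes that averaged TPM 1 or more showed a larger one. Among gene-poor cells it was 2.12, and ACD was detected in 15 of 30 long but 2 of 11 medium telomere cells. Among gene-rich cells it was −0.09, and 45 of 51 and 13 of 14 cells had ACD above TPM 1. Exons of ACD overlap those of RLTPR (now CARMIL2) on the other strand, which was detected in 13.2% of cells.

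POT1, which encodes the subunit on the single-stranded overhang, had median TPM of 2.62 (long), 2.37 (medium) and 0 (short). Its mean log2 levels were 1.99 ± 1.73, 1.85 ± 1.92 and 0.84 ± 1.85, and the gene was at TPM 0 in 11 of 15 short telomere cells. In every group POT1 was detected more often in gene-rich than in gene-poor cells. The percentages were 80.4% against 23.3% of long and 78.6% against 18.2% of medium telomere cells. The 3 gene-rich short telomere cells had TPM 2.39, 24.1 and 54.6. Among gene-rich cells this put the short group above the long one by 1.46 (long minus short −1.46) and above the medium one by 1.32 (medium minus short −1.32). POT1 was above TPM 1 in 0 of the 12 gene-poor short telomere cells, against 7 of 30 gene-poor long and 2 of 11 gene-poor medium telomere cells. For this count of 0, 3 counts of 12 cells give a limit of 25.0%, and the exact Clopper-Pearson upper bound is 26.5%.

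The differences of the 6 genes were set beside those of the whole table. Of the 6 genes, 4 (TERF1, TINF2, TERF2IP and POT1) were higher in long than in short telomere cells by at least 1 on the log2 scale and none was lower by that much, while 38.9% of the 13439 genes averaging TPM 1 or more were higher by this limit and 3.75% lower. Leaving out 1 cell could bring this count up to 5. The median difference was 1.22 over the 6 genes and 0.70 over all 13439 genes. These shares depended on the level of the genes, since among the 6213 genes averaging TPM 10 or more, as TERF1, TERF2IP, TINF2 and ACD do, 66.5% were higher in the long group, with a median difference of 1.40. Between medium and short telomere cells, the same 4 genes were higher by at least 1, against 33.8% of all genes higher and 4.11% lower, and the median over the 6 was 1.02 against 0.60. Among the genes averaging TPM 10 or more, 59.9% were higher and the median was 1.23. Of these 4, POT1 (1.01) and TINF2 (1.03) lay just past the limit, and leaving out 1 cell could bring the count down to 2. Between long and medium telomere cells, none of the 6 passed the limit in either direction, against 0.893% of all genes higher and 0.387% lower, and the median over the 6 was 0.39 against 0.10. Both comparisons with the short group share its 15 cells.

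Among gene-rich cells, TINF2 (1.39) and TERF1 (1.31) were higher in long than in short telomere cells by at least 1 and POT1 was lower, where 11.4% of all genes were higher and 9.37% lower by this limit. Among gene-poor cells TERF1 alone passed, against 26.4% of all genes higher. TERF1 was thus the only one of the 6 past the limit in the long to short comparison over all cells, gene-rich cells and gene-poor cells alike. The share of all genes that pass in all 3 sets was not computed, so TERF1 is not set apart by this. The sets are also not independent, since gene-rich and gene-poor cells together are all cells, and the gene-rich set holds 3 short telomere cells. Its difference was larger than that of 87.0%, 93.3% and 95.0% of the 13439 genes in these 3 sets. These percentages are not matched for level. Over all cells, the 6213 genes averaging TPM 10 or more had a median difference of 1.40, and 24.9% of them were higher by at least 2. The place of TERF1 (1.92) among genes of its own level was not computed.

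Detection followed the number of detected genes in a cell for every subunit but TERF1. Over all cells, TERF2 was detected in 71.1% (exact Clopper-Pearson 95% interval 62.1 to 79.0), ACD and TERF2IP each in 67.8% (58.7 to 76.0), TINF2 in 61.2% (51.9 to 69.9) and POT1 in 52.9% (43.6 to 62.0). The intervals cover counting error over cells only. The 5 genes were detected in 80.9% (POT1) to 91.2% (TERF2IP) of gene-rich cells and in 17.0% (POT1) to 50.9% (TERF2) of gene-poor cells. By telomere length, POT1 was detected in 59.3% of the long, 52.0% of the medium and 20.0% of the short group (intervals 47.8 to 70.1, 31.3 to 72.2 and 4.33 to 48.1). TINF2 was detected in 65.4%, 64.0% and 33.3% of cells of these groups, TERF2IP in 71.6%, 72.0% and 40.0%, ACD in 74.1%, 60.0% and 46.7%, and TERF2 in 69.1%, 84.0% and 60.0%. Where a gene was detected, its level was higher in gene-poor than in gene-rich cells. The same was not computed for all genes, and TPM sums to nearly the same total in every cell. This was therefore not read as a trait of shelterin genes. The median TPM over cells with the gene detected was 24.4 for TINF2 in gene-poor against 10.7 in gene-rich cells, 20.9 against 6.49 for ACD, 26.5 against 15.5 for TERF2IP, 15.8 against 8.75 for POT1 and 8.58 against 4.72 for TERF2.

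**Figure D3:**
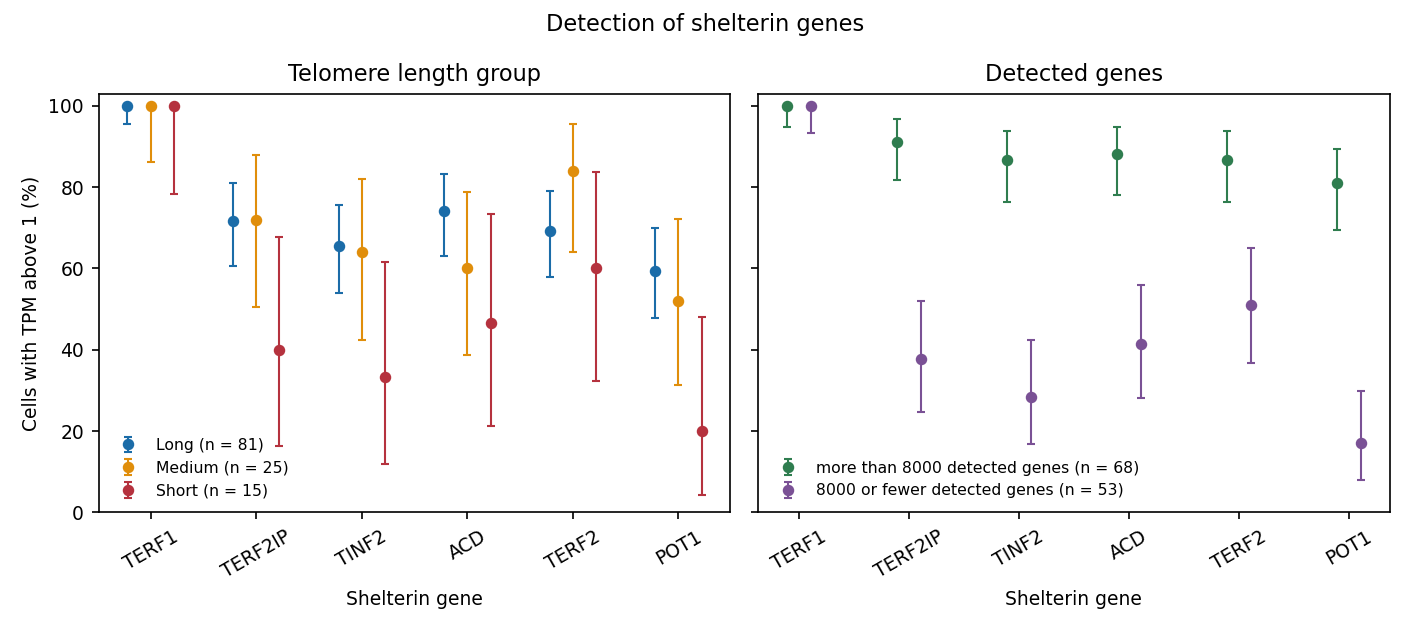
Percentage of cells in which each shelterin gene was above TPM 1, by telomere length group on the left and for gene-rich (over 8000 detected genes) and gene-poor cells on the right. Points are percentages and bars are exact Clopper-Pearson 95% intervals for counting error over cells. TERF1 is at 100% throughout. For the other 5 genes the intervals of the sets on the right do not overlap, while those of the telomere length groups overlap for each of these genes.

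A complete set of the 6 subunits was detected in 37 of 121 cells (30.6%, interval 22.5 to 39.6), and all 37 were gene-rich. Of the 68 gene-rich cells 54.4% had all 6, and the number of subunits per cell was 5.34 ± 0.82. Among the 53 gene-poor cells, none had more than 4 subunits, and the number per cell was 2.75 ± 0.90. For this count of 0, 3 counts of 53 cells give a limit of 5.66%, and the exact Clopper-Pearson upper bound is 6.72%. In these cells the most common number was 3, in 20 cells. Subunits and sets of cells share the limit of TPM 1, so the contrast of the sets was not read as a result about shelterin.

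By telomere length, long telomere cells had 4.40 ± 1.52 subunits detected, medium telomere cells 4.32 ± 1.44 and short telomere cells 3.00 ± 1.36. All 6 were found in 29 of 81 long (35.8%), 7 of 25 medium (28.0%) and 1 of 15 short telomere cells (6.67%, interval 0.169 to 31.9). Among gene-rich cells the numbers per cell were 5.37 ± 0.80, 5.29 ± 0.91 and 5.00 ± 1.00 (n = 51, 14 and 3), and among gene-poor cells 2.73 ± 0.87, 3.09 ± 0.94 and 2.50 ± 0.90 (n = 30, 11 and 12). In both sets the groups differed by less than 1 SD across cells.

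The 3 genes of the chain from the double-stranded repeats to the overhang, TINF2, ACD and POT1, were detected together in 44 cells and were all missing in 15 cells. All 44 cells were gene-rich and all 15 were gene-poor. The chain was complete in 34 of 81 long, 8 of 25 medium and 2 of 15 short telomere cells, and missing in 5, 4 and 6. Among gene-rich cells it was complete in 34 of 51 long, 8 of 14 medium and 2 of 3 short telomere cells. Among gene-poor cells it was missing in 5 of 30 long, 4 of 11 medium and 6 of 12 short telomere cells.

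**Figure D4:**
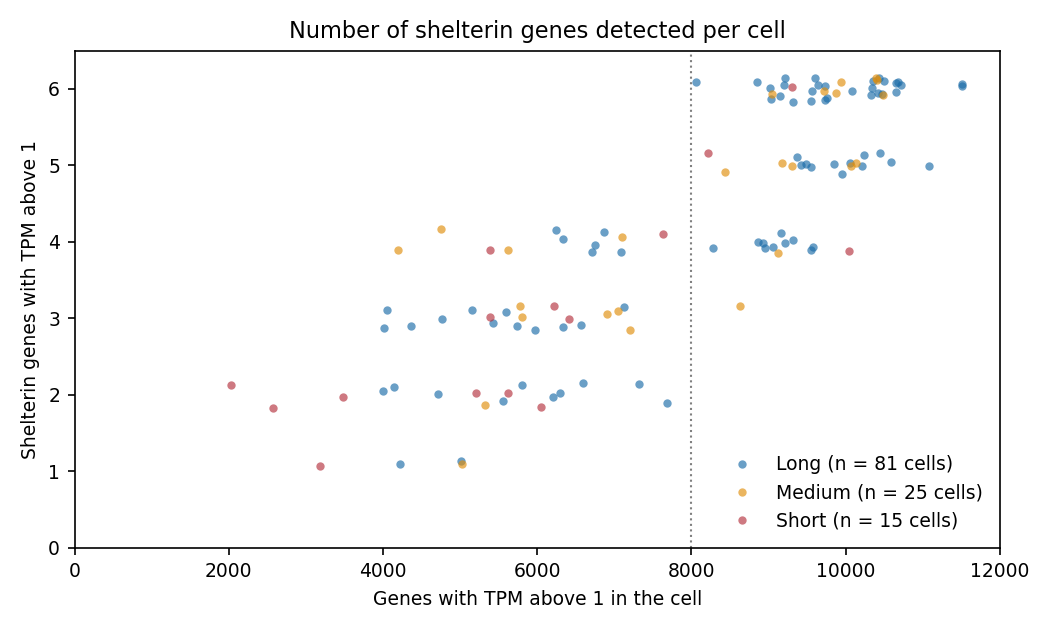
Number of shelterin genes above TPM 1 in each cell, from 1 to 6, against the number of all genes above TPM 1. Each point is 1 cell, moved slightly up or down so that points do not cover each other, colours are the telomere length groups, and the dotted line marks 8000 detected genes. Cells with 5 or 6 subunits all lie to the right of this line, in all 3 groups.

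The makeup of the summed shelterin signal was next given per cell, as the share of each gene in the TPM summed over the 6 genes, which does not depend on how a cell is scaled. TERF1 held 91.0% ± 5.83 (long), 90.3% ± 6.35 (medium) and 77.7% ± 24.4 (short) of the sum (SD across n = 81, 25 and 15 cells). It was the highest of the 6 genes in 119 of 121 cells, and both exceptions were short telomere cells. In 1 of them ACD led with TPM 64.3 against TERF1 at 15.9, and in the other TERF2IP led with TPM 831 against 689. TERF1 held more than 50% of the sum in 118 of 121 cells.

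The remaining share was held by different genes in different cells. On average TERF2IP held 3.08%, TINF2 2.29%, ACD 2.24%, TERF2 1.82% and POT1 1.37% of the sum. In short telomere cells the means were 5.21% for TERF2IP, 6.37% for ACD and 6.33% for TERF2, against 2.58%, 1.86% and 1.25% in long telomere cells, with SDs in the short group of 14.4, 14.5 and 8.83. The summed TPM of the 5 genes other than TERF1 was 52.3 in the median long, 39.9 in the median medium and 19.5 in the median short telomere cell, and the highest single value was 832, in a short telomere cell.

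A small number of cells carried much of the signal of the low genes. The highest cell held 20.9% of all TINF2 TPM (417, a long telomere cell), 16.9% of TERF2 (167, long), 13.5% of ACD (241, long) and 7.42% of POT1 (59.0, medium). For TERF1 the highest cell held 3.11%. All of these cells but the one for POT1 were gene-poor.

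Coexpression of the subunits was weak. Over the 121 cells, the Pearson coefficient of log2(TPM + 1) for the 15 pairs ranged from −0.13 (TERF1 and TERF2) to 0.25 (POT1 and TERF2IP), with a median of 0.10. These are descriptions over cells of 1 line with unequal numbers of detected genes, and weak coefficients of sparse values were not read as relations. The genes whose products bind each other were not set apart, as TERF2 and TERF2IP had −0.05, TINF2 and ACD 0.02, ACD and POT1 −0.03, TERF1 and TINF2 0.11, and TERF2 and TINF2 0.10. Spearman coefficients ranged from −0.15 to 0.27, and all 15 coefficients were under 0.3 in size by both measures.

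Part of the coefficients above 0 were smaller once the number of detected genes was taken into account. Given that number, the partial coefficients ranged from −0.15 to 0.12 with a median of −0.03. The median was 0.0045 among gene-rich and −0.02 among gene-poor cells. POT1 and TINF2, at 0.20 over all cells, had −0.07 and −0.02 in these sets, and POT1 and TERF2IP had 0.11 and 0.0029. Some pairs with TERF1 moved less, as its partial coefficient was 0.12 with ACD, 0.10 with TINF2 and 0.09 with TERF2IP, against 0.12, 0.11 and 0.11 before. Detection counts differed from pair to pair. TINF2 was found in 67.4% of cells with TERF2 and in 45.7% of cells without it, but among gene-rich cells in 86.4% and 88.9%, and among gene-poor cells in 25.9% and 30.8%. TERF2IP was found in 50.0% of gene-poor cells with ACD and in 29.0% of those without it, against 90.0% and 100% among gene-rich cells. POT1 was found in 4.55% of gene-poor cells with ACD and in 25.8% of those without it.

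Read beside the rest of the table, all 15 pair coefficients lay within the middle 90% of the coefficients that each gene of the pair had with other genes. The median coefficient of a member with the other 13438 genes of the background lay between 0.03 for ACD and 0.21 for POT1, and the middle 90% of coefficients of TERF1 spanned −0.17 to 0.28. The highest of the 15 pairs, POT1 and TERF2IP, was above 56.7% of the coefficients of POT1 and above 85.4% of those of TERF2IP.

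Within single telomere length groups some coefficients were larger, on fewer cells. In the 81 long telomere cells TERF1 had −0.44 with TERF2IP and −0.38 with POT1 (Spearman −0.32 and −0.34), where TERF1 was itself lower in cells with more detected genes, and POT1 had 0.33 with TERF2IP. In the 25 medium telomere cells POT1 had 0.55 with TERF2 and 0.45 with TINF2. In the 15 short telomere cells the coefficients ran from −0.41 (TERF1 and TERF2) to 0.42 (TERF1 and TERF2IP). The pair of TERF1 and TERF2IP thus had −0.44, 0.33 and 0.42 in the long, medium and short groups, and this difference was not tested.

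**Figure D5:**
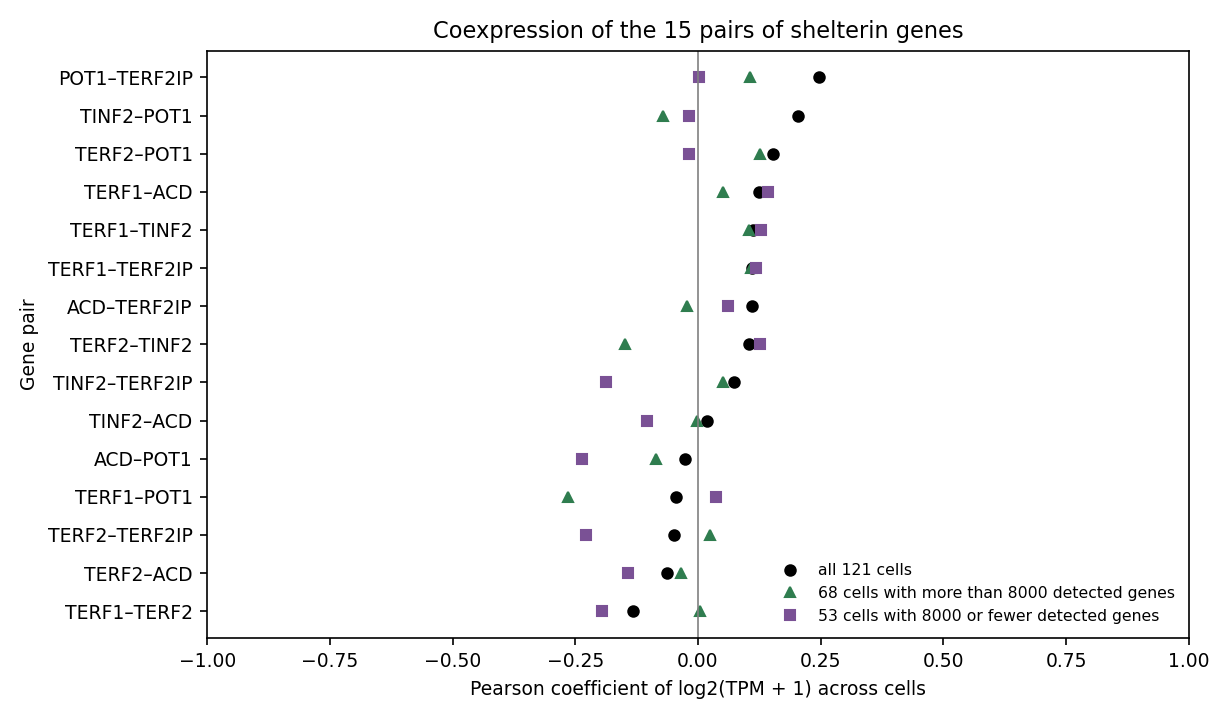
Pearson coefficients of log2(TPM + 1) across cells for the 15 pairs of shelterin genes, in all 121 cells (circles), in the 68 gene-rich cells (over 8000 detected genes, triangles) and in the 53 gene-poor cells (squares). The x axis runs from −1 to 1, and all points lie between −0.27 and 0.25. Pairs with the highest coefficients over all cells lie near 0 within 1 or both of the sets.

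The subunits differed in how far they went along with the number of detected genes. Over 121 cells the Pearson coefficient with that number was 0.59 for POT1, 0.42 for TINF2, 0.39 for TERF2IP, 0.22 for TERF2, 0.11 for ACD and 0.06 for TERF1, beside a median of 0.33 over the 13439 genes. POT1 thus lay above 92.5% of these genes and TERF1 above 15.9%. Both quantities come from the same libraries and share their unknown depth.

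With the hESC markers, the largest Pearson coefficients of TERF1 were 0.41 with the DNA methyltransferase gene DNMT3B and 0.39 with NANOG, and the lowest was −0.14 with LIN28A (n = 121 cells). For NANOG the Spearman coefficient was 0.09, and the Pearson coefficient was −0.04 among gene-rich and 0.49 among gene-poor cells. For DNMT3B it was 0.31 and 0.45 in these sets. POT1 had coefficients of 0.44 with LIN28A, 0.43 with NANOG, 0.41 with ZFP42 and 0.40 with POU5F1 over all cells, and 0.24, 0.11, 0.06 and 0.27 among gene-rich cells, where it had −0.07 with SOX2 and −0.09 with GDF3. For ACD all 8 coefficients were at most 0.13 in size over all cells, while among gene-rich cells it had −0.32 with PODXL, −0.21 with ZFP42 and −0.20 with NANOG.

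Among 11018 genes with TPM above 1 in no fewer than 25% of cells, the pattern most like that of TERF1 was that of CDC42 (Pearson 0.67, Spearman 0.45), followed by THRAP3 (0.64) and SKP1 (0.64). Their coefficients were 0.03, 0.43 and 0.08 among gene-rich cells and 0.75, 0.68 and 0.74 among gene-poor cells. For POT1 the closest genes were ENPP5 (0.70), PWAR5 (0.69) and the COPII coat gene SEC23A (0.68), and ENPP5 had 0.57 and 0.61 among gene-rich and gene-poor cells. TERF2IP was most like CCDC115 (0.50, with 0.47 and 0.42 in these sets), RNASEK-C17orf49 (0.50) and the ATPase gene RUVBL1 (0.48). TINF2 was most like C9orf142 (0.53), COTL1 (0.52) and MYADM (0.49), ACD most like CUEDC2 (0.43), RNF216P1 (0.42) and AUTS2 (0.39), and TERF2 most like RPLP2 (0.44), UTP14C (0.44) and RPL41 (0.42). No shelterin gene was among the 3 closest genes of another. With 3 places for 11018 genes this was likely for any gene, and it was not read as a result.

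The namesakes of the ACD and TERF2IP products had other values than ACD and TERF2IP. The lysosomal gene TPP1 had a mean log2 level of 3.43 ± 2.26 (long), 3.49 ± 2.22 (medium) and 0.97 ± 1.76 (short), a long minus short difference of 2.46, where ACD had 0.82. RAP1A had means of 2.73 ± 1.74, 2.72 ± 1.66 and 1.77 ± 1.59, a difference of 0.96, where TERF2IP had 1.29. RAP1B had the largest of these differences, 2.84. Among gene-rich cells, with 3 short telomere cells, the long minus short differences of the 3 namesakes lay between −0.27 and 0.17. Among gene-poor cells (30 long and 12 short) they were 1.76 for TPP1, 0.39 for RAP1A and 2.50 for RAP1B, beside a median of 0.37 over all genes.

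Other genes that act at telomere ends were counted from lists chosen by function. Of 15 telomere-end partners, among them the MRE11 complex, the tankyrases, helicases and nucleases, 7 were higher in long than in short telomere cells by at least 1 and none was lower, with a median of 0.77, beside 38.9% of all genes higher, 3.75% lower and a median of 0.70. The highest was NBN at 2.30, a subunit of the MRE11 complex, and the lowest SLX4 at −0.14. Among gene-rich cells, with 3 short telomere cells, 0 of 15 were higher and 2 lower, with a median of −0.23, beside 11.4% of all genes higher and 9.37% lower. Among gene-poor cells 6 of 15 were higher and none was lower, with a median of 0.26. There 26.4% of all genes were higher and 7.37% lower, with a median of 0.37. Between long and medium telomere cells none of the 15 passed the limit, beside 0.893% of all genes higher and 0.387% lower.

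Of the 3 genes of the CST complex, which takes part in the fill-in of telomere ends, TEN1 was higher in long than in short telomere cells by 1.36, OBFC1 (STN1) by 0.97 and CTC1 by 0.56. Of 10 telomerase genes, 5 were higher by at least 1 and none was lower, with a median of 0.81, again beside 38.9% of all genes higher and a median of 0.70. RUVBL2 was highest at 2.45 and DKC1, which encodes dyskerin, was lowest at −0.25. Among gene-rich cells, with 3 short telomere cells, none of these 13 genes passed the limit, which 11.4% of all genes passed as higher and 9.37% as lower. Among gene-poor cells 1 of the 3 CST genes and 3 of the 10 telomerase genes were higher and none was lower. There 26.4% of all genes were higher and 7.37% lower. TERT, the catalytic subunit, was detected in 14 and its RNA TERC in 10 of 121 cells, while NOP10 and NHP2, which encode proteins bound to TERC, were detected in all cells and had median TPM of 751 and 467, around that of TERF1. The protocol captured polyadenylated RNA, so the count for TERC does not cover TERC RNA without a poly(A) tail.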

How the data were processed

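Per their methods, the authors aligned single-end reads of 50 bases to the hg19 genome by TopHat, took gene counts from HTSeq with the RefGene annotation, and normalized with size factors. GEO's labels list TopHat2 and RSEM from the submitters' processing notes. The study's legend describes the values as counts normalized by library size and calls them TPM, and how gene length entered is not given in the sources used here. Over 4433 genes above 0 in 5 to 40 cells, the smallest value above 0 fell with the longest annotated transcript (Spearman −0.53 across genes, which are not independent), where a scaling by library size alone sets the same smallest step for long and short genes. The deposited table holds TPM in 1 column for each of 121 cells, the number the study states, and TPM summed to between 979828 and 997050 per cell over the 25610 genes read. The last row was incomplete and was left out, and genes after ZFR in alphabetical order were not analysed here. No cell was removed, no doublet caller was run, and no 2 cells had identical values.

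Groups were taken from the sample titles, and T/R ratios of single cells were not used here. The members, the gene lists and the border of 8000 detected genes were chosen with earlier results of these data known. Levels are means of log2(TPM + 1) ± SD across cells. Percentages of cell pairs counted ties as 50%. The background was the 13439 genes averaging TPM 1 or more over the cells. Named genes are the 6 members, the highest and lowest of each list, and per member the 3 genes with the highest Pearson coefficient among genes detected in at least 25% of cells. The overlapping genes KARS and RLTPR, and the genes of the short lists and the markers named singly, were added after their values were seen. Positions, pseudogenes and overlaps are from GENCODE on GRCh37, which is the build of hg19. Alternatives were pseudocounts of 0.1 and 10, medians, subsets of cells by detected genes, leaving out each cell in turn, median ratio scaling over 602 genes, rescaling without 86 ribosomal protein genes, other limits, Spearman and partial coefficients, and other detection thresholds. The calculations were tested on simulated data. Python 3.11.15 was used with numpy 2.4.6, pandas 2.3.3, scipy 1.17.1 and matplotlib 3.10.9.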

Additional observations from a re-analysis of the deposited data

How the results depend on the processing

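No paired analysis was possible because no result comes from a test and the numbers in the titles only name cells. The long minus short difference of TERF1 was 1.92, 1.31 among gene-rich cells and 1.17 with median ratio scaling. For TERF2 (0.02) these were 0.76 and −0.60, with −0.67 among gene-poor cells. TINF2 (1.49), ACD (0.82), POT1 (1.15) and TERF2IP (1.29) had 2.64, 1.81, 2.47 and 2.30 with a pseudocount of 0.1, 0.53, 0.16, 0.27 and 0.34 with a pseudocount of 10, and 3.04, 2.69, 1.86 and 3.32 from group medians. Among gene-rich cells POT1 turned to −1.46 (medium minus short −1.32) and TERF2IP was 0.66, among gene-poor cells TINF2 was 0.44 and TERF2IP 0.43, and without cells with under 5000 detected genes ACD was 0.13. With each cell left out in turn, a choice added after the data were seen, TERF2IP ranged from 1.17 to 1.86 and ACD from 0.70 to 1.25.

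The number of genes past the limit was 4 between long and short telomere cells, and 4 to 5 with 1 cell left out, beside 38.9% of all genes higher and 3.75% lower. It was 0 at a limit of 2, beside 11.6% higher and 0.179% lower, and 1 among gene-poor cells, beside 26.4% higher and 7.37% lower. Between medium and short telomere cells it was 4, and 2 to 4 with 1 cell left out, beside 33.8% of all genes higher and 4.11% lower. At a limit of 2 it was 0, beside 8.83% higher and 0.104% lower. Among gene-rich cells it was 1 (POT1, lower in the medium group, with none higher), beside 11.3% higher and 11.6% lower. Between long and medium it was 0, beside 0.893% higher and 0.387% lower. Among gene-poor cells of these 2 groups it was 1, beside 5.97% higher and 5.20% lower. The median of the 15 pair coefficients was 0.10, and −0.029 on linear TPM, −0.018 among gene-poor cells and −0.033 as partial coefficients. The depth is unknown, only 3 gene-rich short telomere cells were present, and the cause of these shifts was not tested.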
